A study of Mus musculus with 12 samples.

Results

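The genes that encode the platelet-derived growth factor (PDGF) ligands and their receptors were examined in cultured mouse cardiac fibroblasts with and without Smad7, an inhibitory Smad that TGF-β itself induces. The members were chosen by symbol, as the 4 ligand genes Pdgfa, Pdgfb, Pdgfc and Pdgfd and the 2 receptor genes Pdgfra and Pdgfrb, which are 6 of the 35275 genes in the deposited count table. The rule itself uses no measured value. All 6 passed the filter on low counts, with between 735 and 7575 reads per library, and so all 6 were tested among 15150 genes.

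The cells were harvested from hearts of 12-week-old C57BL/6 mice homozygous for a floxed Smad7 allele (Smad7 fl/fl) and were used at passage 2. By this account every cell in the series carried the floxed allele, although the sample titles call the control cells wild type. In that allele, per the study's methods, the promoter and exon 1 lie between loxP sites. Cells were infected for 48 hours at 100 MOI, either with an adenovirus that expresses Cre recombinase (Smad7-KO) or with a control adenovirus, which is a GFP virus in the sample labels and an empty virus in the methods. They were then left unstimulated or received TGF-β1 at 10 ng/ml. The stimulation lasted 2 hours according to the treatment label and 4 hours according to the protocol text, and which is right could not be settled. Control and Smad7-KO cells, each with and without TGF-β1, made 4 groups of 3 libraries. No source states that the 3 libraries of a group came from separate cultures or animals, so p-values measure only the spread between these libraries, which may be technical. Cre is delivered by a virus in this model, so any cell of the culture that takes it up can recombine. Below, Smad7 loss stands for the comparison of Cre virus with control virus. No group received Cre without a floxed allele, so effects of Cre itself cannot be told apart from loss of Smad7.

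PDGFs are secreted dimers that activate receptor tyrosine kinases of class III. PDGF receptor α responds to PDGF-A, PDGF-B and PDGF-C chains, whereas PDGF receptor β responds mainly to PDGF-B and PDGF-D. In the heart, receptor α is a marker of fibroblasts and receptor β is prominent on pericytes and other mural cells, and signaling through both drives proliferation, migration and matrix production. PDGF-A and PDGF-B are cleaved inside the cell before secretion, and PDGF-C and PDGF-D are secreted in a latent form that extracellular proteases activate.

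In outline, TGF-β1 raised Pdgfb and Pdgfrb to between 1.65 and 1.89 times their unstimulated level in both genotypes. With Smad7 loss, Pdgfa and Pdgfd were lower in unstimulated cells and Pdgfd was lower in TGF-β1–stimulated cells. Pdgfa rose with TGF-β1 to 1.85 times in Smad7-KO cells, a call lost when any 1 of the 6 Smad7-KO libraries was left out. In control cells its rise was called only without unstimulated control library 2. No member was called for a difference in TGF-β1 response between the genotypes. Pdgfc and Pdgfra passed the test in no comparison. Levels below are in CPM, read counts scaled by TMM to a common library size, and FPKM, which also divides by gene length, is used where genes are compared with each other. A gene was called when its Benjamini-Hochberg adjusted p in edgeR's quasi-likelihood test, fitted over all genes, was 0.05 or less. The fit shared 1 estimate of each gene's spread between the 4 groups, although the groups differed in spread. The common coefficient of variation between libraries, beyond counting noise, was 0.335 in unstimulated and 0.137 in TGF-β1 control cells. In unstimulated and TGF-β1 Smad7-KO cells it was 0.0530 and 0.0998.

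Totals ran from 19056916 to 25371321 counts per library. Without stimulation Smad7 was at 74.4 ± 2.94 CPM in control cells against 29.4 ± 1.48 CPM after Cre (SD, n = 3), and with TGF-β1 at 146 ± 4.24 against 76.8 ± 5.89 CPM, so reads of the targeted gene fell in both states but remained. Unstimulated control library 2 stood apart. With genes split by length into 3 equal sets, its long genes stood at a median of -1.09 relative to its short genes on the log2 scale, against -0.41 to 0.37 in the other 11 libraries. Fibroblast markers were abundant in every group, with Col1a1 at 1694 to 2195 CPM and Dcn at 532 to 685 CPM (group means). Macrophage markers were also high, with the 12 measured genes of that list summing to between 15992 and 25934 CPM over the libraries. Endothelial markers summed to between 675 and 780 CPM in control libraries and between 246 and 310 CPM in Smad7-KO libraries, where Pecam1, Cdh5 and Emcn had log2 fold changes between -5.02 and -3.41 with Smad7 loss. In these bulk samples, fewer cells of a type and less RNA per cell cannot be told apart.

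Promoter sequence is shown for 3 of the ligands, because Pdgfa and Pdgfd are the ligands that were lower with Smad7 loss and Pdgfc is the ligand that was called in no comparison. RefSeq promoter windows on GRCm38.p6 were matched by symbol for 4 of the 6 members, and none was used for Pdgfb or Pdgfrb. Each stretch ends after 250 bases, at the RefSeq start, or earlier where an annotated exon of the gene within its window begins. For Pdgfa it spans 157 bases on the minus strand, chr5:138995038-138995194, within the annotated span of the gene. Another window also matched Pdgfa and was not used, so what follows on Pdgfa describes only the stretch shown. For Pdgfd it spans 250 bases on the plus strand, chr9:6168236-6168485, and for Pdgfc 250 bases on the plus strand, chr3:81036166-81036415. The lines run 5′ to 3′, and capitals mark matches, on either strand, to the Smad box CAGAC or to TATAAA.
Pdgfa: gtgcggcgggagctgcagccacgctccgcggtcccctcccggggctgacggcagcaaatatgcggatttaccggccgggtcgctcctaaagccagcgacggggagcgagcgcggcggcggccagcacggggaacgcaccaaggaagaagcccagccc
Pdgfd: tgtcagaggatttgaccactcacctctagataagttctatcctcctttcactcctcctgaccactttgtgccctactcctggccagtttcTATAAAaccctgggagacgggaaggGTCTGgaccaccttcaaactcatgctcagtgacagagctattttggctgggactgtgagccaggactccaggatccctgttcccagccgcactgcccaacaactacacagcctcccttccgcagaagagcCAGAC
Pdgfc: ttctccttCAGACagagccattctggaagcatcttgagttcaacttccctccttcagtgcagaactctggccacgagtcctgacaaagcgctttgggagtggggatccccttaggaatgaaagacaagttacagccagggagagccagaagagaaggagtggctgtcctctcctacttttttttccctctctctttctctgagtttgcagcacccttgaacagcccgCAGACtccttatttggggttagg

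The Pdgfa stretch was 72.0% G and C, against 53.6% for Pdgfd and 50.8% for Pdgfc. It held no match to CAGAC, whereas the Pdgfd and Pdgfc stretches held 2 each. CAGAC occurs in 42.2% of all 32851 promoter windows over their first 250 bases and in 29.8% over their first 157, so a match is common. TATAAA occurred once, in Pdgfd, and is held by 12.4% of windows over 250 bases. GGGCGG, the GC box, occurred in none of the 3 stretches and is held by 32.7% of windows over 250 bases and 17.6% over 157 bases. None of the motifs overlapped another. A match describes letters only, and says nothing about binding.

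Pdgfa (ENSMUSG00000025856) encodes the PDGF-A chain, a ligand of receptor α. It is protein coding and lies on chromosome 5 of GRCm38, from 138976014 to 138997370 on the minus strand. Its level in libraries 1, 2 and 3 was 80.4, 140.0 and 67.2 CPM in unstimulated control cells and 45.5, 42.7 and 43.9 CPM in unstimulated Smad7-KO cells. All 3 Smad7-KO libraries were below all 3 controls, and control library 2 was far above the other two. With TGF-β1 the levels were 97.3, 127 and 103 CPM in control cells and 81.0, 80.6 and 82.8 CPM in Smad7-KO cells. Again the Smad7-KO libraries were below every control library, by a smaller distance. An overlapping gene on the other strand, the lincRNA 6330403L08Rik, shares 813 of the 3119 exonic bases of Pdgfa (26.1%) in the GENCODE annotation. Whether counting used strand is not given in the sources used here, so reads from the shared part cannot be told apart. 6330403L08Rik had 267 to 577 reads per library and a log2 fold change with Smad7 loss of -0.07 (adjusted p = 0.589) in unstimulated cells and 0.12 (adjusted p = 0.445) in stimulated cells, in the same edgeR fit with Benjamini-Hochberg adjustment.

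Pdgfb (ENSMUSG00000000489) encodes the PDGF-B chain, which binds both receptors and recruits pericytes to vessels. It lies on chromosome 15 from 79995900 to 80014808 on the minus strand. Its level in the 3 libraries was 83.7, 64.3 and 76.2 CPM in unstimulated control cells and 126, 119 and 126 CPM in TGF-β1 control cells. In Smad7-KO cells it was 94.2, 92.7 and 88.6 CPM without and 154, 147 and 158 CPM with TGF-β1. The groups did not overlap. Smad7-KO libraries were above control libraries in each state, and stimulated libraries of either genotype were above all unstimulated ones.

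Pdgfc (ENSMUSG00000028019) encodes the PDGF-C chain, a latent ligand of receptor α. It lies on chromosome 3 from 81036416 to 81214040 on the plus strand. The 3 libraries gave 36.8, 43.6 and 37.6 CPM in unstimulated control and 35.1, 34.6 and 37.7 CPM in TGF-β1 control cells. Smad7-KO libraries gave 41.5, 40.3 and 36.7 CPM without and 37.9, 36.4 and 34.7 CPM with TGF-β1. All compared groups overlapped, and Pdgfc was the least variable of the 6 genes, with a coefficient of variation of 7.39% over the 12 libraries, against 18.3% to 37.6% for the others.

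Pdgfd (ENSMUSG00000032006) encodes the PDGF-D chain, a latent ligand of receptor β. It lies on chromosome 9 from 6168612 to 6378843 on the plus strand. Control libraries gave 75.8, 68.7 and 89.1 CPM unstimulated and 82.0, 71.0 and 72.8 CPM with TGF-β1. Smad7-KO libraries gave 58.1, 47.9 and 54.1 CPM unstimulated and 47.3, 49.5 and 48.2 CPM with TGF-β1. Every one of the 6 Smad7-KO libraries was below every one of the 6 control libraries, whereas stimulated and unstimulated libraries of each genotype overlapped.

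Pdgfra (ENSMUSG00000029231) encodes receptor α and lies on chromosome 5 from 75152291 to 75198204 on the plus strand. Control libraries gave 67.1, 56.7 and 89.8 CPM unstimulated and 67.1, 60.3 and 59.0 CPM with TGF-β1. Smad7-KO libraries gave 92.2, 89.4 and 89.3 CPM unstimulated and 74.2, 92.2 and 77.8 CPM with TGF-β1. Unstimulated control library 3 lay within the unstimulated Smad7-KO range, whereas the stimulated Smad7-KO libraries were all above the stimulated controls.

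Pdgfrb (ENSMUSG00000024620) encodes receptor β and lies on chromosome 18 from 61045150 to 61085061 on the plus strand. Control libraries gave 137, 105 and 193 CPM unstimulated and 306, 248 and 268 CPM with TGF-β1. Smad7-KO libraries gave 156, 154 and 153 CPM unstimulated and 276, 275 and 249 CPM with TGF-β1. Every stimulated library was above every unstimulated library, and the genotypes overlapped in both states. The unstimulated controls were wide apart while the 3 unstimulated Smad7-KO libraries nearly coincided.

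**Figure D1:**
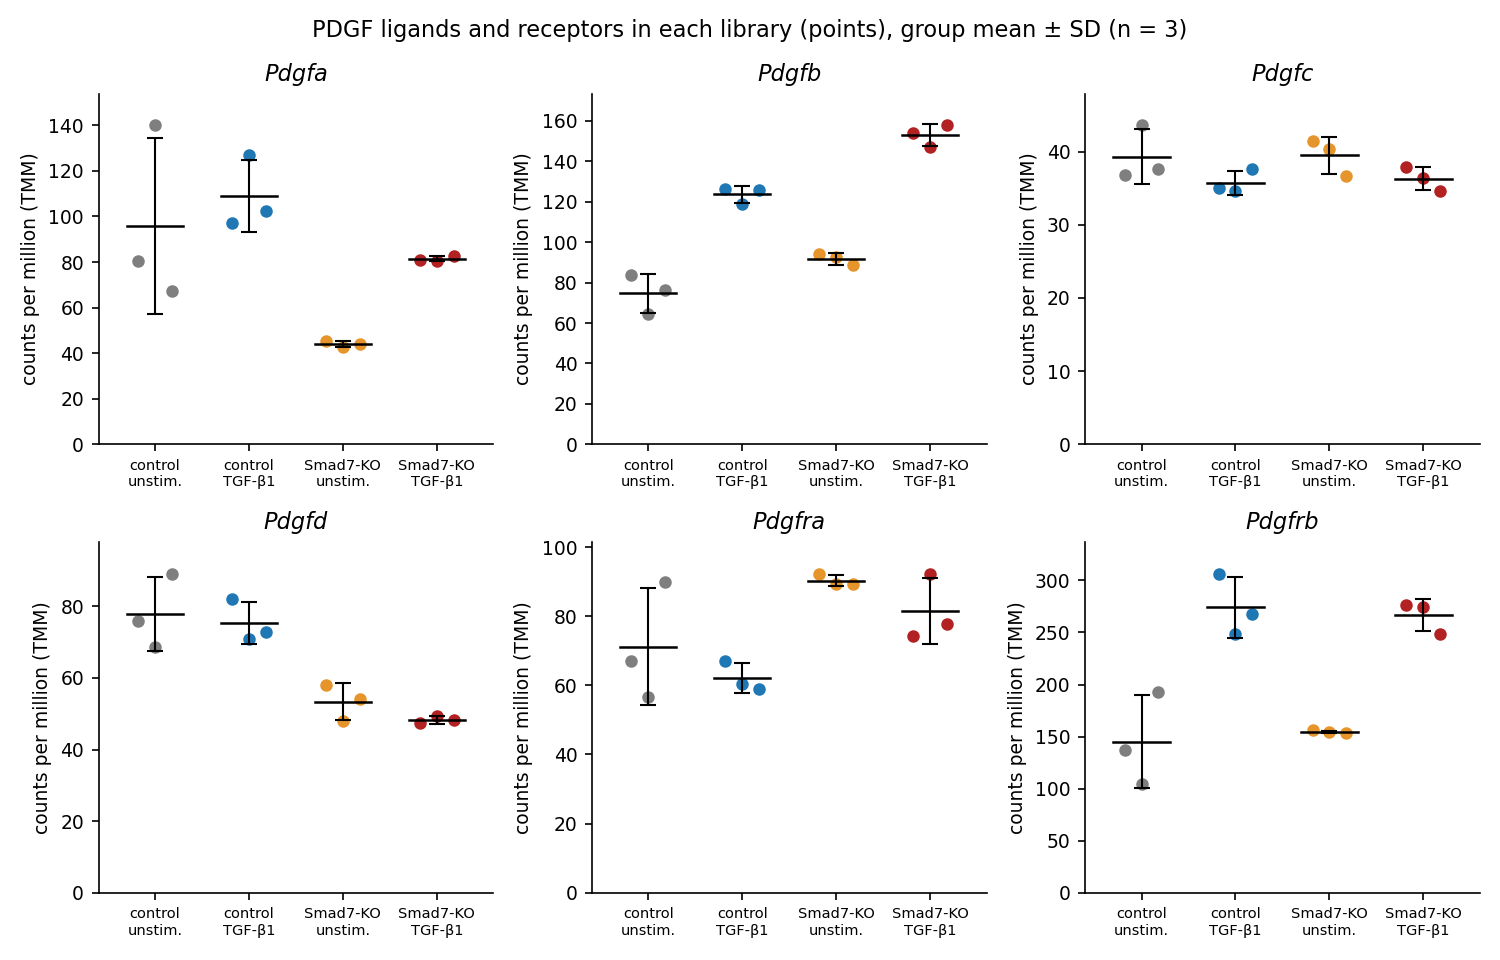
Level of each PDGF ligand and receptor gene in CPM (vertical axis, from 0, TMM-scaled) by group, with each point a library, in the order 1 to 3, and bars showing the group mean ± SD (n = 3). Pdgfb and Pdgfrb are higher in every TGF-β1 library than in every unstimulated library of the same genotype, Pdgfd is lower in all Smad7-KO libraries, and unstimulated control library 2 is the highest point of Pdgfa at 140.0 CPM.

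The effect of Smad7 loss without stimulation was tested first, as unstimulated Smad7-KO against unstimulated control. In this comparison 2 of the 6 members were called, both lower, where 25.8% of all tested genes were called (12.1% higher and 13.7% lower). Pdgfa fell to 0.459 of its control level, with a log2 fold change of -1.12 (SE 0.222, adjusted p = 0.00598, edgeR with Benjamini-Hochberg adjustment). Pdgfd fell to 0.684 of control, at -0.55 (SE 0.117, adjusted p = 0.00855 by the same test). Without unstimulated control library 2, which held the highest Pdgfa value, the Pdgfa change was -0.74 (adjusted p = 0.00107) and that of Pdgfd -0.63 (adjusted p = 0.00207). Both calls were lost when edgeR was fitted to these 6 libraries alone, at adjusted p = 0.0687 and adjusted p = 0.0791.

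The other 4 members were not called. Pdgfb was at 0.30 on the log2 scale (95% interval 0.07 to 0.52, adjusted p = 0.0531 in edgeR with Benjamini-Hochberg adjustment), and all 3 Smad7-KO libraries were above all controls. That adjusted p crossed 0.05 in DESeq2 on all libraries (0.0125) and in edgeR with the gene length trend removed (0.0148). Pdgfra was at 0.34 (95% interval 0.01 to 0.68), and the value became -0.05 once each library's trend on gene length was removed. Pdgfrb was at 0.09 (95% interval -0.30 to 0.48), and became -0.18 with that trend removed and -0.09 without unstimulated control library 2. When unstimulated control library 3 was left out instead, the highest for both receptors, Pdgfra was at 0.55 and Pdgfrb at 0.36 and both were called (adjusted p = 0.00317 and adjusted p = 0.0349), as was Pdgfb at 0.31 (adjusted p = 0.0347). Pdgfb was also called without unstimulated control library 1, at 0.40 (adjusted p = 0.0330). Pdgfc was at 0.01 (95% interval -0.21 to 0.22). No overlap between groups was seen for 3 of the 6 members and for 41.3% of all tested genes, and the exact permutation test of 3 against 3 libraries gives at its smallest a two-sided p = 0.1.

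The same comparison was made in stimulated cells, as TGF-β1 Smad7-KO against TGF-β1 control. There 1 of the 6 members was called, where 13.0% of tested genes were called (5.72% higher and 7.23% lower). This was Pdgfd, which fell to 0.642 of control with a log2 fold change of -0.64 (SE 0.117, adjusted p = 0.00497, edgeR with Benjamini-Hochberg adjustment). It was called in 10 of 10 other fits and in 12 of 12 fits with a library left out. Pdgfa was at -0.42 (95% interval -0.90 to 0.06, adjusted p = 0.227), Pdgfb at 0.31 (95% interval 0.08 to 0.53, adjusted p = 0.0704) and Pdgfra at 0.39 (95% interval 0.05 to 0.73, adjusted p = 0.119) in the same edgeR fit. Libraries of the groups did not overlap for these 3 genes and Pdgfd, or 4 of 6 members, where 44.9% of tested genes did not overlap. When edgeR was fitted to these 6 libraries alone, Pdgfa (adjusted p = 0.0206), Pdgfb (0.0148) and Pdgfra (0.0205) were all called, as they were without unstimulated control library 2. That library is no part of the comparison, and entered it only through the joint fit. With the gene length trend removed Pdgfra was at 0.16 and was not called. Pdgfc was at 0.02 (95% interval -0.20 to 0.24) and Pdgfrb at -0.04 (95% interval -0.43 to 0.35).

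Markers of other cell types moved with genotype. In unstimulated cells the summed endothelial markers were at 675 to 705 CPM in control and 246 to 269 CPM in Smad7-KO libraries, and 10 of the 14 tested genes of that list were called lower with Smad7 loss and 1 higher. With TGF-β1 the sums were 737 to 780 and 292 to 310 CPM, again with 10 of 14 lower, and Cldn5 had no reads in the stimulated Smad7-KO libraries. Pericyte and smooth muscle markers summed to 1049 to 1848 CPM in unstimulated control and 790 to 903 CPM in unstimulated Smad7-KO libraries, and 5 of 9 tested genes were called lower. With TGF-β1 they summed to 1301 to 1795 against 1067 to 1168 CPM, and 2 of 9 were called lower. Acta2, the smooth muscle actin of myofibroblasts, was among those called in unstimulated cells (log2 fold change -0.57, adjusted p = 0.0300 in edgeR with Benjamini-Hochberg adjustment), a call lost in 6 of 12 fits with a library left out. Rgs5, a pericyte marker, was at 1.72 to 5.46 CPM over all libraries. Of the 12 tested macrophage genes, 6 were called higher in unstimulated and 5 in stimulated Smad7-KO cells and none lower, with Cd68 at log2 fold changes of 0.61 and 0.72 and Csf1r at 0.58 and 0.55. Their summed level overlapped without stimulation (16050 to 25934 against 22951 to 25214 CPM) and did not overlap with TGF-β1 (15992 to 18647 against 22103 to 25145 CPM). Mesothelial markers summed to 277 to 309 against 175 to 212 CPM and to 263 to 276 against 168 to 183 CPM, and cardiomyocyte markers to at most 78.3 CPM in any library, with Nppa at 0 in 3 of the 4 groups. Fibroblast markers summed to 11994 to 14260 against 11520 to 12223 CPM without and to 12474 to 12711 against 10631 to 10756 CPM with TGF-β1. Of the 11 tested fibroblast genes, 2 were called higher and 3 lower with Smad7 loss in each state. Their log2 fold changes ran from -1.55 to 0.80 without and from -1.34 to 1.41 with TGF-β1. The part of these cell types in the changes of Pdgfa, Pdgfd, Pdgfb and Pdgfra was not tested.

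The response to TGF-β1 was tested within each genotype. In control cells 2 of the 6 members were called, both higher, where 8.37% of tested genes were called (5.04% higher and 3.33% lower). Pdgfb rose to 1.65 times its unstimulated level, with a log2 fold change of 0.73 (SE 0.103, adjusted p = 8.53e-04, edgeR with Benjamini-Hochberg adjustment). Pdgfrb rose to 1.89 times, at 0.92 (SE 0.180, adjusted p = 0.00728 by the same test). Both were without overlap between groups, as were 19.8% of tested genes, and both were called in 12 of 12 fits with a library left out. In edgeR fitted to these 6 libraries alone they were not called (adjusted p = 0.0570 for Pdgfb and 0.125 for Pdgfrb). Pdgfa was at 0.19 (95% interval -0.29 to 0.67), but without unstimulated control library 2 it was at 0.56 and was called (adjusted p = 0.00755). Pdgfra was at -0.20 (95% interval -0.53 to 0.14) and was called at -0.31 with the gene length trend removed (adjusted p = 0.0221). Pdgfc was at -0.14 (95% interval -0.35 to 0.08) and Pdgfd at -0.05 (95% interval -0.30 to 0.21).

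In Smad7-KO cells 3 of the 6 members were called, all higher, where 10.2% of tested genes were called (5.33% higher and 4.90% lower). Pdgfa rose to 1.85 times, with a log2 fold change of 0.89 (SE 0.221, adjusted p = 0.0241, edgeR with Benjamini-Hochberg adjustment). Pdgfb rose to 1.67 times, at 0.74 (SE 0.103, adjusted p = 6.30e-04), and Pdgfrb to 1.72 times, at 0.79 (SE 0.180, adjusted p = 0.0151), by the same edgeR test. These 3 genes had no overlap between groups, as had 39.0% of tested genes. The Pdgfb call held in 12 of 12 fits with a library left out. The Pdgfa call was lost when any 1 of the 6 Smad7-KO libraries was left out (adjusted p up to 0.0908, with log2 fold changes from 0.87 to 0.91 over the left-out fits), and held in 10 of 10 other fits. The Pdgfrb call was lost without any 1 of unstimulated Smad7-KO libraries 1, 2 and 3 and TGF-β1 Smad7-KO libraries 1 and 2, while its log2 fold change stayed between 0.76 and 0.83. It was also lost in limma on log2(FPKM + 1) without a filter (adjusted p = 0.0871). 6330403L08Rik, on the other strand of Pdgfa, was called higher as well, at 0.52 (SE 0.102, adjusted p = 0.00636 in edgeR with Benjamini-Hochberg adjustment). Pdgfc was at -0.12 (95% interval -0.34 to 0.10), Pdgfd at -0.14 (95% interval -0.40 to 0.11) and Pdgfra at -0.15 (95% interval -0.48 to 0.18).

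Beside these changes, summed endothelial markers were at 675 to 705 CPM without and 737 to 780 CPM with TGF-β1 in control cells, and at 246 to 269 and 292 to 310 CPM in Smad7-KO cells. Summed pericyte and smooth muscle markers overlapped between stimulated and unstimulated control libraries and did not in Smad7-KO libraries (790 to 903 against 1067 to 1168 CPM), with 2 of 9 tested genes called higher in each genotype. Their part in the rise of Pdgfb, Pdgfrb and Pdgfa was not tested.

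**Figure D2:**
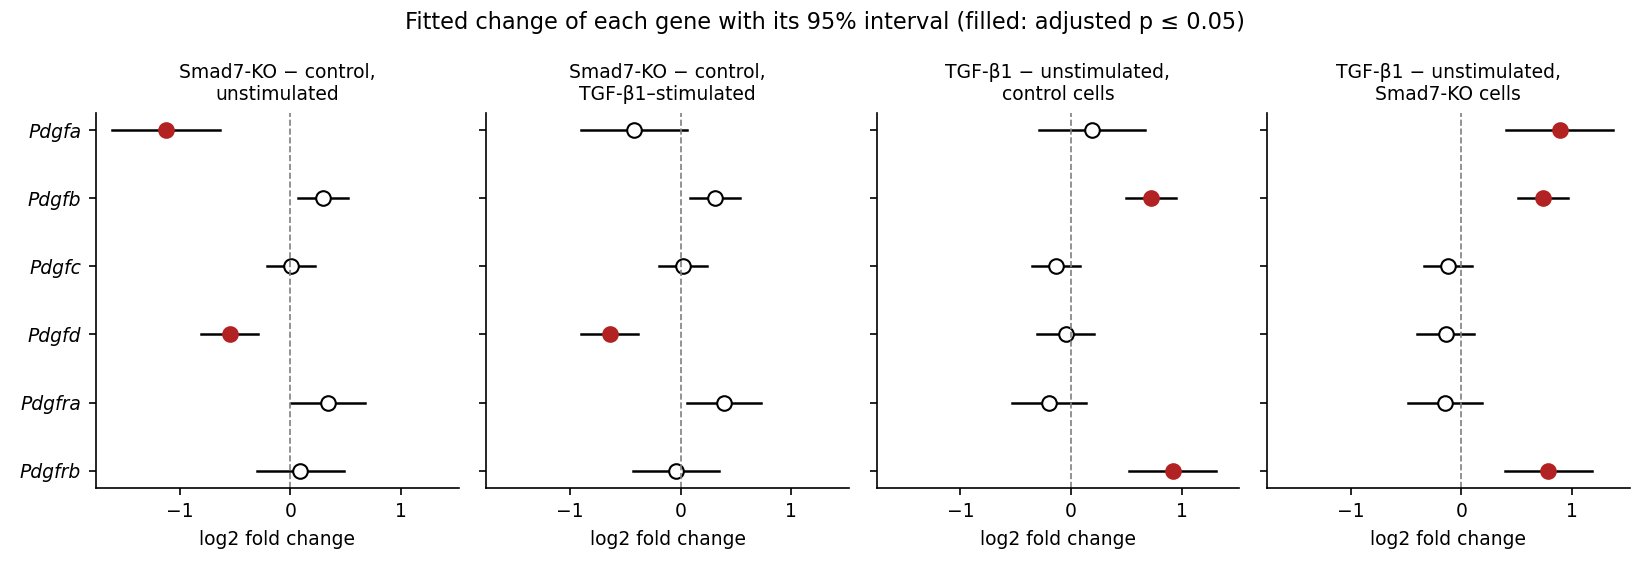
Fitted log2 fold change (horizontal axis) of each member in the 4 comparisons, with lines for the 95% interval and filled points for genes called by edgeR. Pdgfa and Pdgfd lie to the left in the first panel, at -1.12 and -0.55, and Pdgfb and Pdgfrb lie to the right in both TGF-β1 panels, between 0.73 and 0.92.

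Whether the Smad7 effect differed between stimulated and unstimulated cells was tested as an interaction. None of the 6 members was called, where 0.0198% of tested genes (3 of 15150) were called. At an unadjusted p under 0.05 there was 1 member, where 2.59% of tested genes passed. DESeq2 on all libraries and limma on log2(FPKM + 1) also called 0 of the 6. That member was Pdgfa, whose TGF-β1 response was 0.70 higher on the log2 scale in Smad7-KO than in control cells (95% interval 0.02 to 1.38, unadjusted p = 0.0440, adjusted p = 0.980 in edgeR with Benjamini-Hochberg adjustment). Without unstimulated control library 2 the difference was 0.34. For Pdgfb the difference was 0.01 (95% interval -0.31 to 0.33) and for Pdgfrb -0.13 (95% interval -0.68 to 0.42). That Pdgfa was called with TGF-β1 in Smad7-KO cells and not in control cells therefore does not show that the responses differed. The comparisons share groups, so their values are not independent of each other.

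**Figure D3:**
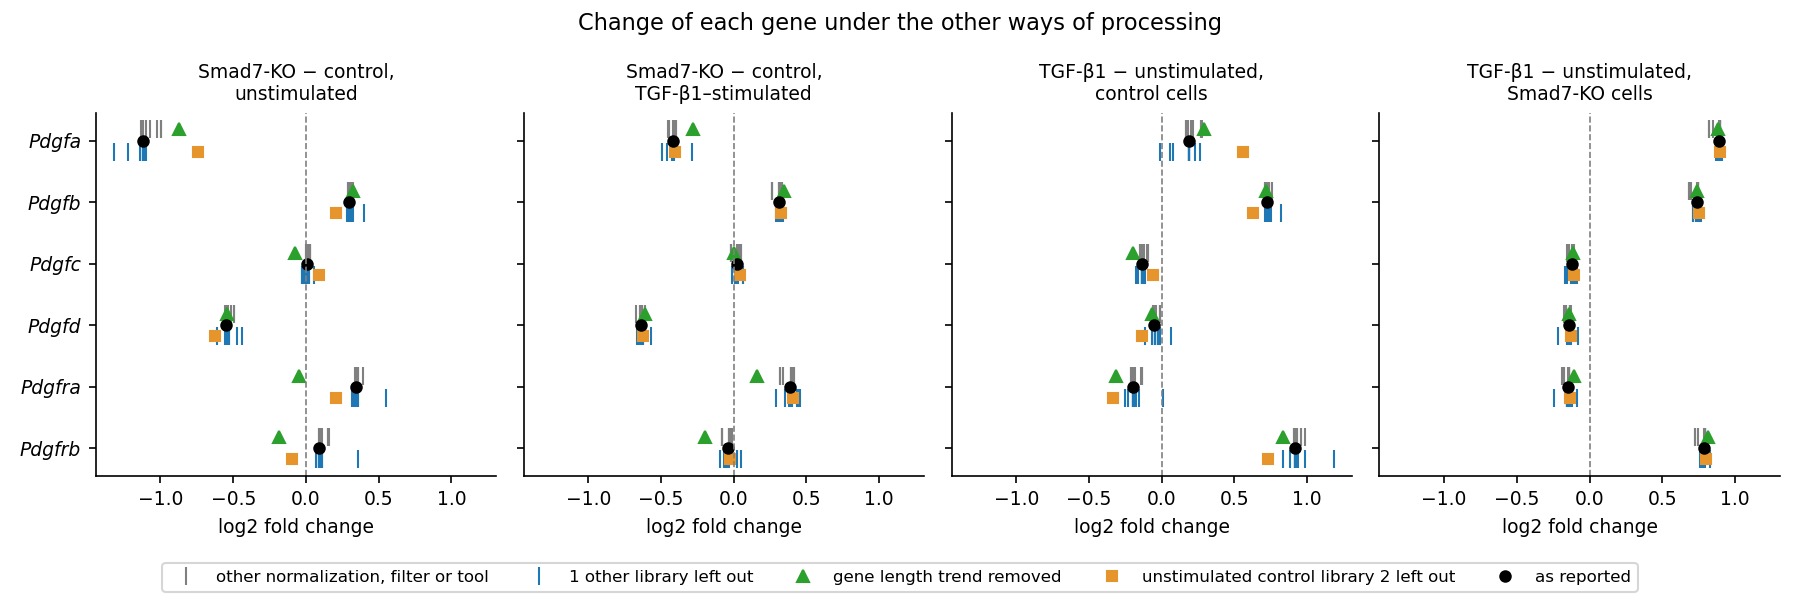
Log2 fold change of each member (horizontal axis) in the 4 comparisons under the reported fit (black), other normalizations, filters and tools (grey), 1 library left out (blue), unstimulated control library 2 left out (orange) and the gene length trend removed (green). Pdgfd and Pdgfb stay on their side of 0 in both Smad7 panels, from -0.68 to -0.44 and from 0.20 to 0.40, whereas Pdgfra, Pdgfrb and Pdgfc cross 0 in the first panel.

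Compared per length in FPKM, the order of the 6 genes differed with condition. In unstimulated control cells Pdgfa had the highest mean level (45.4 ± 15 FPKM, SD, n = 3), followed by Pdgfrb (26.9 ± 9.74 FPKM), Pdgfb (25.6 ± 4.74 FPKM) and Pdgfd (25.5 ± 4.87 FPKM), all of whose neighbours overlapped. Pdgfc (11.1 ± 0.346 FPKM) and Pdgfra (10.9 ± 3.18 FPKM) were lower than these and overlapped each other. In TGF-β1 control cells Pdgfa (53.6 ± 7.56 FPKM) and Pdgfrb (51.2 ± 5.79 FPKM) overlapped at the top, above Pdgfb (42.9 ± 1.65 FPKM) and Pdgfd (25.0 ± 2.08 FPKM). Pdgfc (10.3 ± 0.480 FPKM) and Pdgfra (9.58 ± 0.716 FPKM) were again lowest in that group and overlapped.

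In unstimulated Smad7-KO cells no neighbours overlapped, and the order was Pdgfb (31.7 ± 1.03 FPKM, SD, n = 3), Pdgfrb (28.8 ± 0.273 FPKM), Pdgfa (21.5 ± 0.726 FPKM), Pdgfd (17.6 ± 1.72 FPKM), Pdgfra (13.9 ± 0.273 FPKM) and Pdgfc (11.3 ± 0.735 FPKM). In TGF-β1 Smad7-KO cells Pdgfb (51.6 ± 1.94 FPKM) and Pdgfrb (48.3 ± 2.85 FPKM) overlapped at the top, above Pdgfa (38.9 ± 0.596 FPKM). Pdgfd (15.6 ± 0.274 FPKM), Pdgfra (12.2 ± 1.38 FPKM) and Pdgfc (10.1 ± 0.470 FPKM) followed without overlap. Pdgfa was thus first among the ligands by mean level in both control groups and second to Pdgfb in both Smad7-KO groups.

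As a share of the summed ligand FPKM, Pdgfa made up 41.8 ± 11.2% (SD, n = 3) in unstimulated control and 26.2 ± 0.418% in unstimulated Smad7-KO libraries. Pdgfb made up 24.0 ± 5.53% and 38.6 ± 1.11% of the same sums. With TGF-β1 the Pdgfa share was 40.6 ± 4.42% in control and 33.5 ± 0.250% in Smad7-KO libraries, and the Pdgfb share 32.6 ± 2.23% and 44.4 ± 0.844%. In each state, every Smad7-KO library had a lower Pdgfa share and a higher Pdgfb share than every control library. The ligands summed to 108 ± 6.32 FPKM in unstimulated control and 82.2 ± 3.33 FPKM in unstimulated Smad7-KO cells, and to 132 ± 4.19 and 116 ± 2.19 FPKM with TGF-β1 (SD, n = 3). The ratio of Pdgfrb to Pdgfra in FPKM was 2.44 ± 0.188 without and 5.34 ± 0.304 with TGF-β1 in control cells, and 2.07 ± 0.0223 without and 4.00 ± 0.464 with TGF-β1 in Smad7-KO cells (SD, n = 3). Every stimulated library had a higher receptor ratio than every unstimulated library. The 3 unstimulated control libraries, whose receptor levels were far apart, gave ratios from 2.24 to 2.61. These shares and ratios are descriptions and were not tested.

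**Figure D4:**
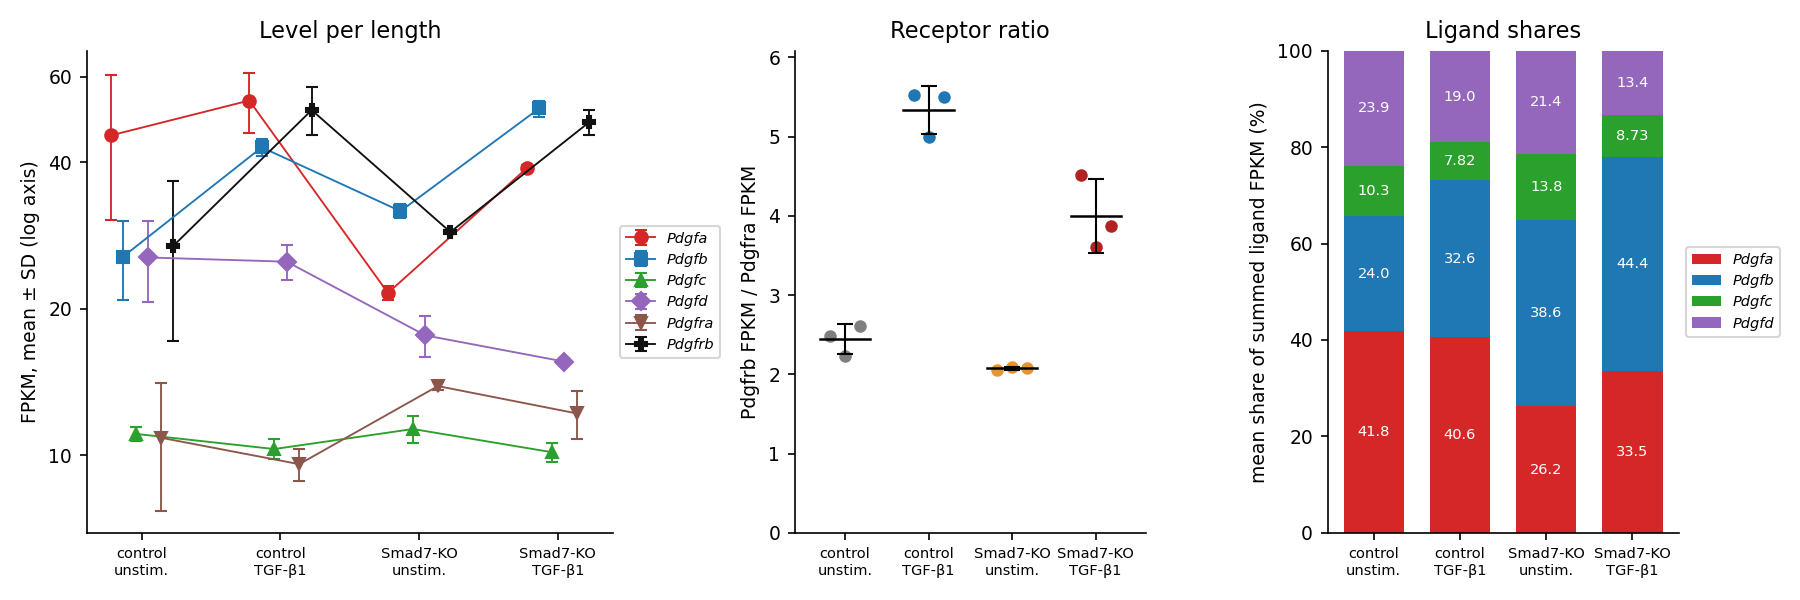
Left, FPKM of the 6 genes by group (log axis, mean ± SD, n = 3, lines join group means of a gene). Middle, ratio of Pdgfrb to Pdgfra FPKM in each library (points) with mean ± SD, highest in TGF-β1 control cells at 5.34. Right, mean share of each ligand in the summed ligand FPKM (percent), with Pdgfa at 41.8% and Pdgfb at 24.0% in unstimulated control cells and at 26.2% and 38.6% in unstimulated Smad7-KO cells.

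The other genes of the pathway were taken from 6 lists that follow the signal from ligand processing to early response genes. They hold 79 genes, of which 78 were tested and 1 (Flt3) was not. With Smad7 loss 26 were called in unstimulated cells (16 higher, 10 lower, or 33.3%, against 25.8% of tested genes) and 17 in stimulated cells (8 higher, 9 lower, or 21.8%, against 13.0%). With TGF-β1 15 were called in control cells (11 higher, 4 lower, or 19.2%, against 8.37%) and 16 in Smad7-KO cells (9 higher, 7 lower, or 20.5%, against 10.2%). The counts called in each list below are to be read against these shares of all tested genes. The median log2 fold change of the 78 genes was 0.07 with Smad7 loss in unstimulated cells, where that of all tested genes was -0.02. In the other 3 comparisons it was 0.00 (Smad7 loss with TGF-β1), 0.09 (TGF-β1 in control cells) and 0.04 (TGF-β1 in Smad7-KO cells), where the medians of all tested genes were -0.02, -0.03 and -0.01. The number called moved with the fit. With Smad7 loss in unstimulated cells it was 3 in edgeR fitted to the 6 libraries alone. Leaving out unstimulated control library 1 gave 12 and leaving out library 3 gave 39. It was 7 to 10 when any 1 of the unstimulated Smad7-KO libraries was left out. In stimulated cells it was 33 in edgeR fitted to the 6 libraries alone and 34 and 27 without unstimulated control libraries 2 and 3. It was 8 to 10 when any 1 of the 6 stimulated libraries was left out. With TGF-β1 in control cells it was 5 in edgeR fitted to the 6 libraries alone, 26 with the gene length trend removed and 25 without unstimulated control library 3. In Smad7-KO cells these fits gave 29 and 28, and 26 genes were called without unstimulated control library 2.

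**Figure D5:**
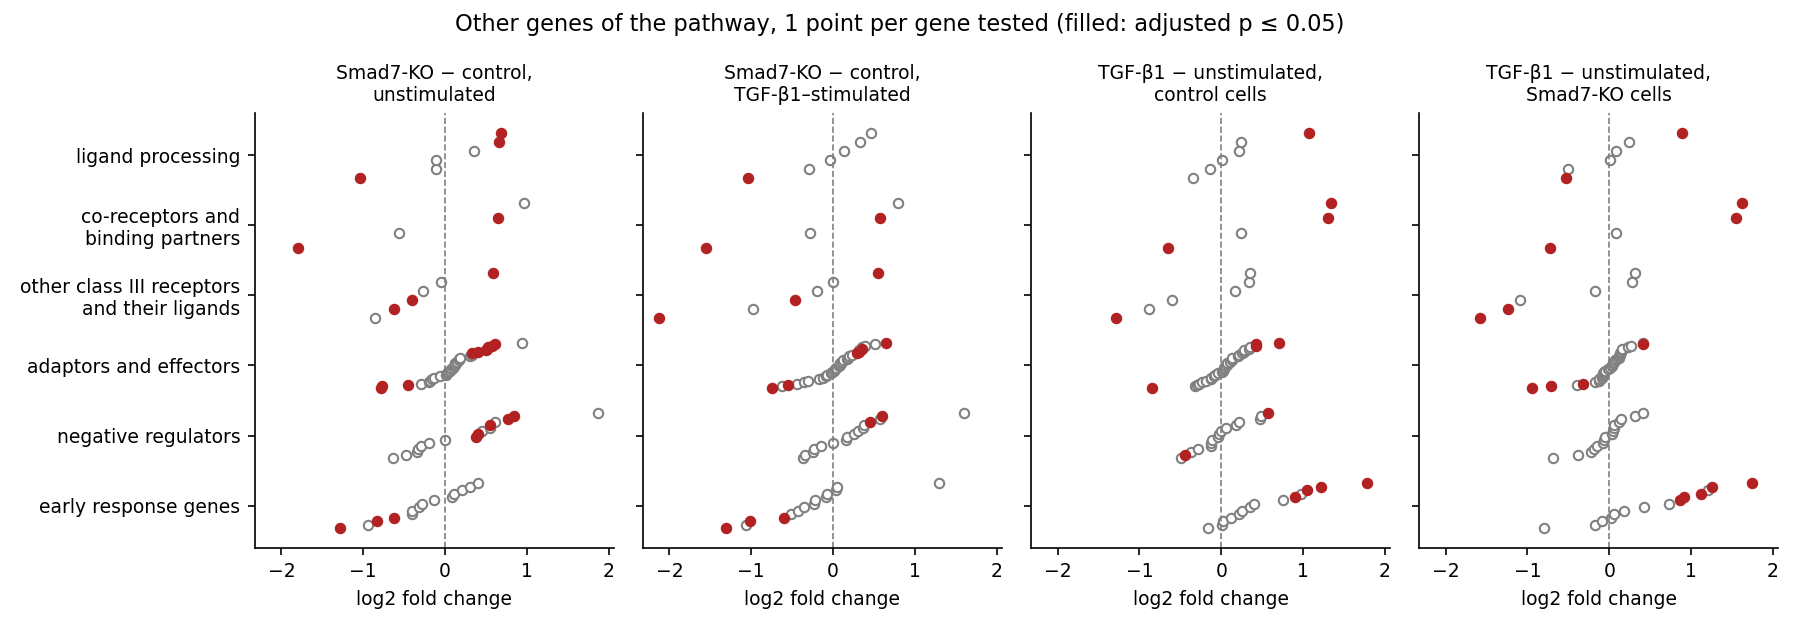
Log2 fold change (horizontal axis) of the 78 tested genes of 6 pathway lists (rows) in the 4 comparisons, with 1 point per gene and filled points for genes called by edgeR. The 32 adaptors and effectors lie between -0.95 and 0.94 in the 4 panels and the 14 early response genes between -1.31 and 1.78.

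Among the proteases that process PDGF ligands, Furin, a convertase that cleaves the PDGF-A and PDGF-B precursors, rose with TGF-β1 from 89.1 ± 28.7 to 188 ± 29.9 CPM (SD, n = 3) in control cells. In Smad7-KO cells it rose from 140 ± 8.0 to 259 ± 8.26 CPM (SD, n = 3). The log2 fold changes were 1.07 (adjusted p = 0.00646) and 0.89 (adjusted p = 0.0163) in edgeR with Benjamini-Hochberg adjustment, and the call in Smad7-KO cells was lost without any 1 of unstimulated libraries 1, 2 and 3 and stimulated libraries 1 and 2 of that genotype (adjusted p up to 0.0774). Furin was also called higher with Smad7 loss in unstimulated cells (0.66), but in 5 of 12 fits with a library left out (log2 fold changes from 0.42 to 0.86). Pcsk5, another convertase, fell with Smad7 loss by 1.04 on the log2 scale in both states, from 107 ± 22.4 to 51.9 ± 5.78 CPM and from 126 ± 12.0 to 61.5 ± 4.88 CPM (SD, n = 3), and was called in 10 of 10 other fits in each. St14, the membrane protease matriptase, rose with Smad7 loss in unstimulated cells from 6.37 ± 0.567 to 10.3 ± 1.51 CPM (SD, n = 3, log2 fold change 0.69). Plat, the tissue plasminogen activator that activates PDGF-C, fell with TGF-β1 in Smad7-KO cells by 0.53 on the log2 scale (adjusted p = 0.0110 in edgeR with Benjamini-Hochberg adjustment). That call was lost without unstimulated Smad7-KO library 1 or stimulated Smad7-KO library 1 or 2 (adjusted p up to 0.0677). Of the 6 genes of this list, 2 rose and 1 fell with Smad7 loss in unstimulated cells, 1 fell in stimulated cells, 1 rose with TGF-β1 in control cells, and 1 rose and 1 fell in Smad7-KO cells, and the list's median log2 fold change lay between 0.05 and 0.12 in these comparisons.

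Of the 4 co-receptors and binding partners, 1 rose and 1 fell with Smad7 loss in each state, and 2 rose and 1 fell with TGF-β1 in each genotype. The list's median log2 fold change was 0.04 and 0.15 with Smad7 loss and 0.78 and 0.82 with TGF-β1. Nrp1, neuropilin-1, which binds PDGF receptors, rose with Smad7 loss from 267 ± 30.7 to 417 ± 17.8 CPM (SD, n = 3) and fell with TGF-β1, to 170 ± 10.5 CPM in control cells and, after Cre, to 253 ± 20.6 CPM. Its log2 fold changes were 0.64 and 0.57 with Smad7 loss, without and with TGF-β1, and -0.65 and -0.72 with TGF-β1. Both calls with Smad7 loss were lost with the gene length trend removed, and the direction did not change. Cspg4, the NG2 proteoglycan of pericytes that binds PDGF-A, went the other way, and was low. It fell with Smad7 loss from 3.75 ± 1.08 to 1.08 ± 0.460 CPM and, with TGF-β1, from 9.34 ± 1.19 to 3.18 ± 0.909 CPM (SD, n = 3), with log2 fold changes of -1.79 and -1.55. The rise of Cspg4 with TGF-β1 was 1.31 on the log2 scale in control and 1.55 in Smad7-KO cells. Each call was lost in 3 of 12 fits with a library left out (adjusted p up to 0.0787 and 0.0523). Cspg4 is also 1 of the pericyte and smooth muscle markers, which were lower with Smad7 loss as given above. Pdgfrl, a PDGF receptor-like gene, rose with TGF-β1 by 1.34 on the log2 scale in control cells (from 2.26 ± 0.406 to 5.73 ± 0.530 CPM, SD, n = 3) and by 1.62 in Smad7-KO cells, and was called in all 10 other fits and all 12 fits with a library left out in both.

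Of the other class III receptors and their ligands, 6 of 7 were tested. Kitl, the stem cell factor that activates Kit, fell with TGF-β1 from 59.0 ± 10.0 to 24.2 ± 1.38 CPM in control cells and from 57.0 ± 0.303 to 24.2 ± 0.885 CPM in Smad7-KO cells (SD, n = 3). These were log2 fold changes of -1.29 (adjusted p = 4.38e-05) and -1.24 (adjusted p = 4.59e-05) in edgeR with Benjamini-Hochberg adjustment. Csf1r, the macrophage receptor that neighbours Pdgfrb in this class, was higher with Smad7 loss in both states, and its ligand Csf1 lower, at -0.40 and -0.46. The Csf1 calls were lost in 7 and 5 of 10 other fits. Those of Csf1r, which is also among the macrophage markers, were lost without any 1 of the unstimulated Smad7-KO libraries (adjusted p up to 0.0551) and without any 1 of the 6 stimulated libraries (adjusted p up to 0.117). Il34, another ligand of Csf1r, was lower in unstimulated Smad7-KO cells (-0.63), a call lost in 5 of 12 fits with a library left out (adjusted p up to 0.0852). The list's median log2 fold change was -0.34 and -0.33 with Smad7 loss, and -0.21 and -0.63 with TGF-β1 in control and Smad7-KO cells, with 3 of 6 genes called in each Smad7 comparison, 1 and 2 with TGF-β1. Flt3l fell with TGF-β1 in Smad7-KO cells by 1.59 on the log2 scale, at a low level (2.48 ± 0.509 to 0.826 ± 0.145 CPM, SD, n = 3), and lost the call in 3 of 12 fits with a library left out (adjusted p up to 0.0620).

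The 32 adaptors and effectors couple the receptors to Ras, PI3 kinase, phospholipase C and STATs. With Smad7 loss 10 of the 32 were called in unstimulated cells (7 higher, 3 lower), where 25.8% of all tested genes were called. In stimulated cells 6 were called (4 higher, 2 lower), against 13.0% of tested genes. With TGF-β1 4 were called in each genotype, against 8.37% of tested genes in control and 10.2% in Smad7-KO cells. The list's median log2 fold change lay between 0.03 and 0.12 in these comparisons. Pik3r1, the regulatory subunit of PI3 kinase, was higher with Smad7 loss in both states (log2 fold changes 0.58 and 0.64), and lost the call in 5 and 4 of 12 fits with a library left out (adjusted p up to 0.0858 and 0.120). Gab1, a docking protein, fell with TGF-β1 from 73.3 ± 4.01 to 40.7 ± 0.144 CPM in control cells and from 74.0 ± 0.765 to 38.3 ± 0.665 CPM in Smad7-KO cells (SD, n = 3), and was called in 10 of 10 other fits in each. Fyn, a Src family kinase, rose with TGF-β1 by 0.43 and 0.41. Nck2, an adaptor of the cytoskeleton, fell by 0.56 with Smad7 loss in stimulated cells and by 0.72 with TGF-β1 in Smad7-KO cells. Grb10 fell by 0.75 with Smad7 loss in stimulated cells. Pik3cb, a catalytic subunit of PI3 kinase, rose with TGF-β1 in control cells (0.70) and was not called without TGF-β1 control library 1 (adjusted p = 0.0598). The Ras activator Sos1 (0.61), Hras (-0.78) and Map2k2 (-0.77), each called with Smad7 loss in unstimulated cells, lost the call in 8, 5 and 3 of 10 other fits and in 10, 11 and 9 of 12 fits with a library left out.

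Of the 16 negative regulators, 5 were called higher with Smad7 loss in unstimulated cells and 2 in stimulated cells, and none was called lower. Of all tested genes, 25.8% were called in unstimulated and 13.0% in stimulated cells (12.1% and 5.72% higher). The list's median log2 fold change was 0.39 and 0.21, where the medians of all tested genes were -0.02 and -0.02. Ptpn1, a phosphatase that dephosphorylates PDGF receptors, rose from 117 ± 26.6 to 210 ± 8.84 CPM unstimulated and from 132 ± 12.5 to 200 ± 7.45 CPM with TGF-β1 (SD, n = 3), which were 0.85 and 0.60 on the log2 scale. The call in stimulated cells was lost without TGF-β1 control library 2 or 3 or stimulated Smad7-KO library 1 or 2 (adjusted p up to 0.0952). Ptprj, a receptor phosphatase that also acts on PDGF receptor β, rose by 0.77 in unstimulated cells, a call that was lost in 6 of 12 fits with a library left out (adjusted p up to 0.0868). Dusp6, the ERK phosphatase, rose with Smad7 loss in stimulated cells from 81.1 ± 2.29 to 111 ± 5.16 CPM (SD, n = 3, log2 fold change 0.46). With TGF-β1 in control cells the signaling antagonist Spry1 rose by 0.58 (not called without TGF-β1 control library 3, adjusted p = 0.0565) and Socs3 fell by 0.44, a call lost in 7 of 10 other fits, and none of the 16 was called with TGF-β1 in Smad7-KO cells (edgeR with Benjamini-Hochberg adjustment).

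Early response genes, which PDGF and other mitogens switch on within a short time, were mostly not called in each comparison. With Smad7 loss 3 of 14 were called lower in each state and none higher. Of all tested genes, 25.8% were called in unstimulated and 13.0% in stimulated cells (13.7% and 7.23% lower). The list's log2 fold changes ran from -1.28 to 0.40 in unstimulated cells and from -1.31 to 1.29 in stimulated cells. With TGF-β1 4 and 5 were called higher and none lower, where 8.37% and 10.2% of all tested genes were called (5.04% and 5.33% higher). The list's median log2 fold change was -0.30 in both Smad7 comparisons and 0.38 and 0.58 with TGF-β1 in control and Smad7-KO cells. Egr1, a transcription factor induced by growth factors, fell in unstimulated cells from 47.7 ± 1.89 to 19.6 ± 5.63 CPM (SD, n = 3, log2 fold change -1.28). Ier3 fell with Smad7 loss by 0.83 and 1.01 on the log2 scale and rose with TGF-β1 in control cells by 1.05. Its call with Smad7 loss in unstimulated cells was lost without any 1 of the Smad7-KO libraries there (adjusted p up to 0.0584). Cxcl1, a chemokine, fell in stimulated cells from 5.06 ± 0.904 to 2.03 ± 0.497 CPM (SD, n = 3), and lost the call without any 1 of the 6 stimulated libraries (adjusted p up to 0.107). TGF-β1 raised Egr2 in control cells from 6.24 ± 0.624 to 14.5 ± 0.628 CPM and Junb in Smad7-KO cells from 80.1 ± 7.20 to 191 ± 14.6 CPM (SD, n = 3). No gene of the 6 lists was called in the interaction.

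Genes whose pattern over the 12 libraries was most like that of each member were found by the Pearson correlation of log2 CPM over the 12202 tested genes whose mean log2 CPM reached 1. For Pdgfb they were Rtn4rl1, Tspan14 and Cyth1 (r = 0.99 each) and for Pdgfrb Slc39a14, Eogt and Loxl2 (r = 0.98 each). For Pdgfa they were Zwint (r = 0.98), Yaf2 and 2010111I01Rik (r = 0.97 each), and for Pdgfd Emp2, Armcx2 and Hs6st2 (r = 0.98 each). For Pdgfra they were Tef, Rbm5 and Phip (r = 0.96 each). Pdgfc, which varied least, had the weakest best matches, Mettl20 (r = 0.90), Riok3 and Cdk15 (r = 0.88 each). These values describe 12 libraries that share 4 group means and the length trend of single libraries, and no p is given.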

How the data were processed

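RNA-Seq libraries (poly-A selected, NEBNext Ultra kit) of 12 mouse cardiac fibroblast samples in 4 groups of 3 were used. Deposited values were raw, unnormalized counts of reads for 35275 genes and the authors' FPKM, each of which was the count divided by its gene's length and its library's total. The submitters' processing notes name CASAVA, TopHat2 2.0, Cufflinks 2.1.1 and HTSeq 0.6.1 with mm10 and GRCm38.p6, and the study's methods name DESeq2. The strand setting is not given in the sources used here, and 0 deposited columns were left without a sample. Coordinates are those of the deposited table, and 3 of the 6 members match GENCODE M21 (GRCm38) exactly.

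Counts were analysed in R 4.3.3 with edgeR 4.0.16: filterByExpr (minimum count 10), TMM, a robust quasi-likelihood fit of all 12 libraries, 5 contrasts and Benjamini-Hochberg adjustment over 15150 genes, with calls at 0.05. Median depth was 22660845 counts. Fold changes in median over all genes shifted by at most 0.03 (log2). Replicate pairs differed by more than counting noise (chi-square per gene 3.09 to 241), so none was counted as a duplicate. Alternatives were DESeq2 1.42.0 and edgeR on all libraries or only those of a comparison, DESeq2 size factors, no filter, limma 3.58.1 on log2(FPKM + 1) with and without its filter (FPKM of 1 in 3 libraries) and on log2(FPKM + 0.1), the replicate number as a block, the trend on gene length removed by loess (span 0.3), each library left out, and, for the order of levels, counts per kilobase and medians. The split of calls by scaling was added after seeing the data. The fits were tested on simulated counts with the same spread in all groups and no length trend. That test does not cover the unequal spread or the length trends of these libraries.

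The members and lists were chosen with earlier results of these data known. Named genes are the members, Smad7, fixed cell markers and, from each pathway list, up to 2 called genes that rose most and 2 that fell most per comparison with a mean log2 CPM of 1 or more. A gene that this rule names is not reported here.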

Additional observations from a re-analysis of the deposited data

How the results depend on the processing

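Of 648 values of the 6 members under alternatives, 569 kept direction and side of the threshold, 16 lost and 23 gained a call, and 40 changed sign. Of 1496 values of the other named genes, 1249 kept and 247 lost the call and 0 changed sign. Genes called with Smad7 loss in unstimulated cells (3907) came to 2578 in DESeq2 and 660 in edgeR fitted to these 6 libraries alone, 2390 in limma without a filter, and 1535 to 7979 with a library left out (7979 without unstimulated control library 3, 2006 without library 1 and 1652, 1536 and 1535 without Smad7-KO libraries 1, 2 and 3). In stimulated cells (1962) they came to 2975 in DESeq2, 4849 and 4453 in DESeq2 and edgeR fitted to the 6 alone, 3513 with the length trend removed and 883 to 4465 with a library left out (4465 without unstimulated control library 2). With TGF-β1 in control cells (1268) they came to 391 in edgeR fitted to the 6 alone, 2278 with the length trend removed and 825 to 3449 with a library left out (3449 without unstimulated control library 3). In Smad7-KO cells (1550) they came to 3581, 3792 and 2621 in DESeq2 and edgeR fitted to the 6 alone and with the length trend removed, and 985 to 2535 with a library left out (2535 without unstimulated control library 2). For the interaction (3) they came to 16 in DESeq2, 13 with the length trend removed, 0 in the limma fits and 0 to 6 with a library left out.

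Members called with Smad7 loss in unstimulated cells (2) came to 0 in edgeR fitted to the 6 alone and 2 to 5 with a library left out, and in stimulated cells (1) to 2 with DESeq2 size factors, 2 in DESeq2, 2 with the length trend removed, 4 in DESeq2 and 4 in edgeR fitted to the 6 alone, and 1 to 4 with a library left out. With TGF-β1 in control cells (2) they came to 0 in edgeR fitted to the 6 alone, and in Smad7-KO cells (3) to between 1 and 3 with a library left out. By median, 2 members took another rank in unstimulated control cells. With a library left out 2 to 3 did there and 0 to 2 in TGF-β1 control cells.

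Signs changed for values that were not called. With Smad7 loss in unstimulated cells, Pdgfc was at -0.0020 in DESeq2 on the 6 libraries alone, -0.077 with the length trend removed and -0.028 to 0.089 with a library left out, Pdgfra at -0.048 and Pdgfrb at -0.18 with the trend removed, and Pdgfrb at -0.094 to 0.36 with a library left out. In stimulated cells Pdgfc was at -0.019 (pseudocount 1, with and without a filter) and -0.021 (pseudocount 0.1) in limma and -0.0091 to 0.065, and Pdgfrb at -0.094 to 0.048, with a library left out. With TGF-β1 in control cells and a library left out, Pdgfa was at -0.011 to 0.56, Pdgfd at -0.13 to 0.061 and Pdgfra at -0.34 to 0.0085. In the interaction limma gave Pdgfb -0.056, Pdgfc -0.048 and Pdgfra -0.046 with a pseudocount of 1 (both filters) and -0.062, -0.052 and -0.049 with 0.1, and with a library left out Pdgfb was at -0.086 to 0.12, Pdgfc at -0.050 to 0.053, Pdgfd at -0.20 to 0.0038, Pdgfra at -0.16 to 0.20 and Pdgfrb at -0.40 to 0.070. The cause was not tested.

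Whether the replicate numbers pair the libraries was not settled. Of 18 same-numbered pairs 1 correlated over 0.1 (r from -0.36 to 0.52), whereas 8 of 12 libraries correlated best with their own number. With the replicate number as a block the interaction called 0 genes, and no call of a member changed. The members had 735 or more reads per library, and the spread between the 3 libraries differed by group. For Pdgfrb the coefficient of variation of CPM was 30.9% in unstimulated control and 0.819% in unstimulated Smad7-KO libraries. Whether library spread or counting noise limits the precision of each member was not tested.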
